A study of Schizosaccharomyces pombe with 30 samples.

Results

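A total of 782 Seb1 crosslink sites lay in 5′ untranslated regions (5′ UTRs), out of 15824 sites listed for the whole transcriptome and 15789 on the 3 nuclear chromosomes of *S. pombe*. A site was counted as a 5′ UTR site when it lay, on the same strand, in an exon of a protein-coding gene before the first base of the coding sequence (CDS), and outside any CDS of that strand and any tRNA, rRNA, snRNA or snoRNA gene. The rule uses position only and none of the measured values. The sites came from 1 PAR-CLIP library (PAR-CLIP being a crosslinking and immunoprecipitation method with a light-sensitive nucleoside) of h- cells carrying seb1::seb1-TAP::KanMX, in which the chromosomal seb1 gene encodes the tagged protein. The culture was kept at 30 °C on minimal medium containing 4% glucose, 10 mg per litre uracil and 100 μM 4-thiouracil, received a further 900 μM 4-thiouracil for 4 h and was irradiated with 12 J per cm2 at 365 nm. Transcript abundance was taken by the authors from 1 RNA-Seq library of untagged h- cells labelled in the same way. No replicate of either library was analysed here, so each value below belongs to these libraries, all intervals are 95% intervals that cover counting error only, and no test was made.

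Seb1 is an essential RNA-binding protein of fission yeast that binds the phosphorylated C-terminal domain of RNA polymerase II (Pol II) with its CTD-interacting domain and contacts nascent RNA with its RNA recognition motif, and it is best known for its part in 3′ end formation and transcription termination. In PAR-CLIP, 4-thiouracil is built into RNA in place of uracil and crosslinks to a bound protein under long-wave UV light, after which the contacted base is read as C in place of T in the cDNA. The 5′ UTR is the first part of a transcript to leave the polymerase and, in the mature mRNA, the stretch scanned by the small ribosomal subunit before the start codon. The tetramer UGUA was followed here because the paper reports it as enriched at Seb1 sites. That motif came from a search within 25 nt of the crosslinks of Seb1 PAR-CLIP in the same study. An excess of UGUA at the sites below is therefore no independent evidence that Seb1 recognises it. The paper also cites a similar motif, A(U)GUA, found with another crosslinking method, so a site without UGUA may still lie near a related sequence.

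The sequences around the sites with the most T-to-C transitions are given first. Not all of these sites are among those with the most reads. Each window holds 29 nt of RNA sense sequence, 5′ to 3′, from the reference assembly ASM294v3, the crosslinked base is base 15, and capitals mark UGUA.
seb1, chrI:959893-959921, plus strand: aacacaaaaaguauuuaagaacaggguga
tif51, chrI:4142306-4142334, minus strand: auuaaaaccuauccUGUAgaaaggaaaag
seb1, chrI:959971-959999, plus strand: aaaaaguaguaaaauucuuauaaaggaaa
tbp1, chrI:4415524-4415552, plus strand: aaaauaauaauugauuuacugcaauggau
SPAPB24D3.03, chrI:2952330-2952358, plus strand: uugauaugaugggcuUGUAuuagcccuaa
seb1, chrI:959936-959964, plus strand: gucuuucaagcacgUGUAaaaaacuaaua
In the windows of tif51 and of the last seb1 site the crosslinked base was the first U of UGUA itself.

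The next windows belong to further sites at the maximum of the occupancy, the measure in which transitions are set against transcript abundance. They are shown because such sites made up a larger share in 5′ UTRs than in CDS, introns or 3′ UTRs.
rpl1001, chrII:2081494-2081522, plus strand: ucuuuaacuaguaauucaagauggcacgu
rps2202, chrI:1512358-1512386, minus strand: uuaccaccuacaguuuauaaaguaaaagu
rrp16, chrI:4803119-4803147, plus strand: ccaagcacuccuaauUGUAguaauuagau
gpd1, chrII:4035587-4035615, plus strand: guuUGUAuuaauaguuguucaacuagaaa
SPAC27E2.11C, chrI:4009901-4009929, minus strand: ugauaacagcaccuuuacucaacggucgu

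The last set shows a site with the most transitions in each of the other genes with many 5′ UTR sites, so that sites within and outside UGUA can be compared. In SPBC1271.10C, ptl1, rep1 and SPAC2H10.01 the printed site shared that number with another.
SPBC1271.10C, chrII:347656-347684, plus strand: cguuugcucuuuucUGUAauUGUAauuuc
sfk1, chrIII:867417-867445, plus strand: auauugaauaacucUGUAaaccaacaggu
ptl1, chrIII:1765080-1765108, minus strand: cuuguuacguaaaauuagaaaagauugga
rep1, chrII:2976740-2976768, plus strand: guaaaauucguauauugcuauuaauccuu
ssa2, chrIII:2057096-2057124, plus strand: uuccuuauaggaaguuaacgaagaaaguu
ssl1, chrIII:384362-384390, plus strand: ugaguucuuuagucUGUAgaaaccaagga
pho843, chrIII:828345-828373, plus strand: guugcagcaguaaauucucccugcauugu
SPAC2H10.01, chrI:5273256-5273284, plus strand: uucauauacauagguguugccaacauuuc
bdf2, chrI:2107317-2107345, plus strand: guugcuguguugauugcUGUAgcuuauac
Of these 20 windows, 9 hold UGUA. Over all 782 sites, 33.1% had UGUA in a window of this length, against 10.8% of all 5′ UTR uridines.

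The depth at a single site was low. Between 4 and 396 reads covered a 5′ UTR site, with a median of 12, and 494 sites (63.2%) rested on 2 transitions. Only 26 sites had 10 or more transitions, and 11 of these lay in seb1. Summed over sites, 2432 of 22260 reads carried the transition, and within a site the share of reads with the transition ran from 2.93% to 75%, with a median of 18.6%. Reads were not marked by molecular identifiers, so PCR duplicates may be among them.

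Seb1 crosslinks were found in the 5′ UTRs of 550 of the 4512 coding genes that have an annotated 5′ UTR, a background share of 12.2% (Wilson interval 11.3 to 13.2%). Most of these genes held a single site (420 genes), 80 held 2 sites and 50 held 3 or more. The sites were spread over chromosome I (377), chromosome II (264) and chromosome III (141) and over both strands (412 plus, 370 minus). Sites of 1 gene share its transcript and are not independent of each other. Of 232 neighbouring pairs in the same UTR, 63 were less than 10 nt apart and 18 were adjacent bases, so that the 782 sites made up 718 clusters.

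Density was counted as sites per 1000 uridines, because only uridines can be crosslinked by 4-thiouracil and 5′ UTRs are richer in U (37.9%) than CDS (30.4%). 5′ UTRs had 2.69 sites per 1000 uridines (2.51 to 2.89), CDS had 2.08 (2.02 to 2.14), introns of coding genes had 2.78 (2.54 to 3.04) and 3′ UTRs had 3.55 (3.41 to 3.69). The density in 5′ UTRs was therefore 1.29 times that in CDS (1.20 to 1.40), 0.759 times that in 3′ UTRs (0.700 to 0.822) and 0.967 times that in introns (0.862 to 1.09), the last being within counting error of equality. UGUA lay within 25 nt of 40.4% of the 5′ UTR sites (37.0 to 43.9%) and of 18.6% of all 5′ UTR uridines, a 2.18-fold excess. The excess was 2.09-fold in 3′ UTRs and 1.75-fold in CDS, where 47.8% and 27.4% of sites had the motif.

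**Figure D1:**
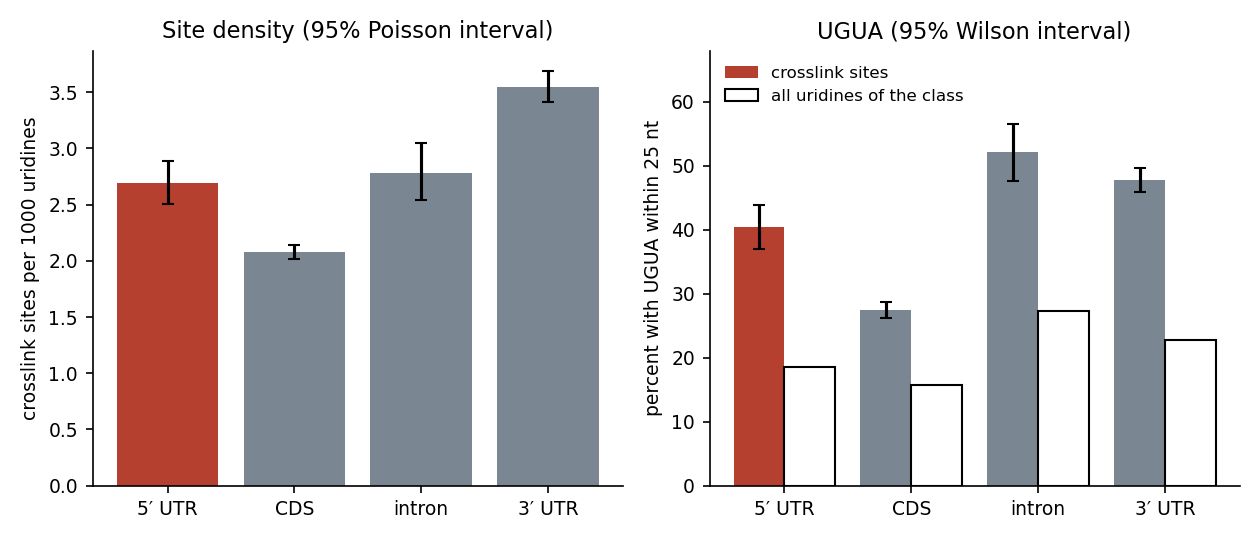
Left, crosslink sites per 1000 uridines in 5′ UTRs, CDS, introns of coding genes and 3′ UTRs, with 95% Poisson intervals; right, the percentage of sites (filled, with 95% Wilson intervals) and of all uridines (open) with UGUA within 25 nt. 5′ UTR sites were denser than CDS sites (2.69 against 2.08) and less dense than 3′ UTR sites (3.55), and in each class sites had UGUA more often than uridines did.

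The sites lay towards the beginning of the transcript. The density rose from 1.15 per 1000 uridines (0.807 to 1.60) in the last 20 nt before the annotated transcript start to 3.55 in the first 20 nt of the transcript and 4.50 (3.77 to 5.32) in the next 20 nt, which is a step at the position where the annotation places the start of the 5′ UTR. Within 5′ UTRs it was 3.82 (3.14 to 4.60) in the first 25 nt, 3.90 from 25 to 49 nt, 3.13 from 50 to 99 nt, 3.09 from 100 to 199 nt, 1.95 from 200 to 399 nt and 1.40 (1.11 to 1.74) from 400 nt onwards. The median distance of a site from the transcript start was 99 nt (88 to 107), against 146 nt for all 5′ UTR uridines. The decline was also present within the long UTRs alone. In UTRs of at least 400 nt the densities over the same 6 stretches were 3.67, 4.14, 3.10, 3.64, 2.11 and 1.40.

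No such step was seen at the start codon. The last 20 nt before the CDS had 3.41 sites per 1000 uridines (2.78 to 4.14) and its first 20 nt had 3.68 (2.98 to 4.48). The higher density of 5′ UTRs than of CDS was not found when uridines at the same distance from the transcript start were compared. At matched distance, the ratio of the density in 5′ UTRs to that in CDS was 0.707 (0.555 to 0.903) from 50 to 99 nt, 0.951 (0.786 to 1.15) from 100 to 199 nt and 0.772 (0.625 to 0.946) from 200 to 399 nt. It was 0.687 (0.544 to 0.857) from 400 nt onwards, a wide stretch in which distance is not closely matched. Closer to the start few CDS sites exist, and the ratio was 0.486 (0.273 to 0.941) in the first 25 nt, from 13 CDS sites, and 1.37 (0.847 to 2.32) from 25 to 49 nt, from 20 CDS sites. The genes that enter differ between these comparisons, since only genes with short 5′ UTRs have CDS bases near the start. UGUA was near 30.5% (22.9 to 39.3%) of the 118 sites in the last 25 nt before the CDS and near 38.6 to 47.6% of the sites in the 5 stretches farther upstream, with intervals that mostly overlap the first. Of the uridines, 17.1% had it in the last 25 nt and 17.3 to 19.6% farther upstream.

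**Figure D2:**
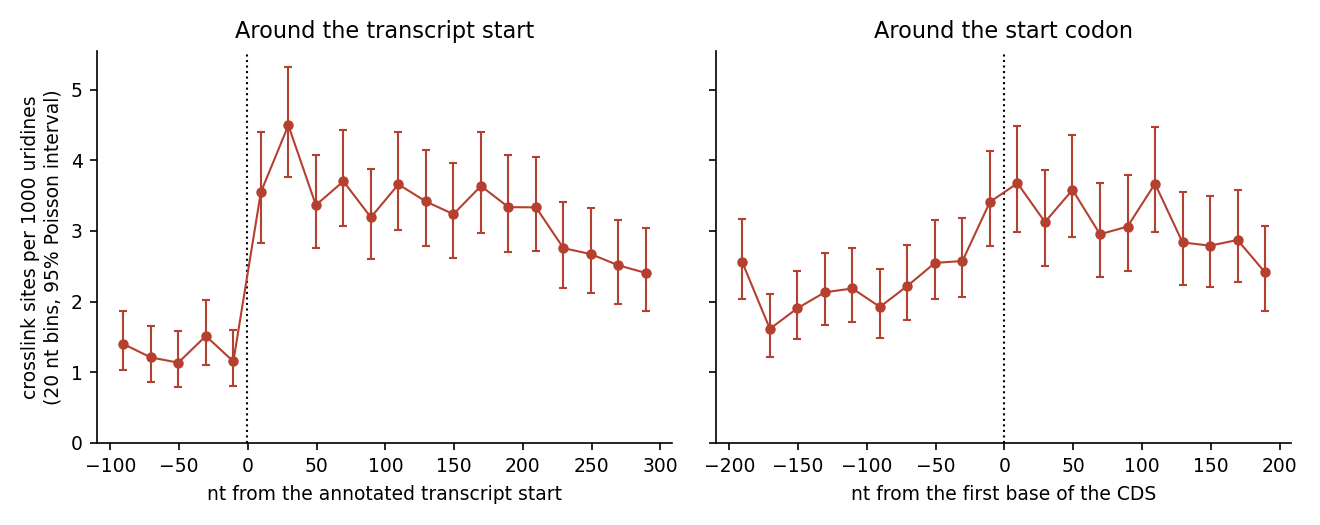
Crosslink sites per 1000 uridines in 20 nt bins around the annotated transcript start (left) and the first base of the CDS (right) of coding genes, with 95% Poisson intervals; dotted lines mark the start and the first CDS base. The density steps from 1.15 to 3.55 at the transcript start, whereas 3.41 before and 3.68 after the start codon overlap in their intervals.

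Longer 5′ UTRs offered more uridines and more often held a site, although their density was lower. Of the 1337 genes with a 5′ UTR under 50 nt, 41 (3.07%) had a site, and their density was 4.69 per 1000 uridines. The share was 7.77% for UTRs of 50 to 99 nt, 14.0% for 100 to 199 nt, 17.8% for 200 to 399 nt and 36.2% for 400 nt or more, the last with a density of 2.14. The median 5′ UTR length was 223.5 nt (196 to 233) in genes with a site and 86 nt (82 to 90) in genes without. Any count of genes below therefore has to be read beside the UTR length.

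The occupancy as deposited was higher in 5′ UTRs than in the other parts of coding genes, but close to that of sites outside them. It is a ratio of the transitions at a site to a whole number, read here as the number of RNA-Seq reads over that base, and it does not exceed 1. Its median was 0.0952 in 5′ UTRs (0.0833 to 0.111), 0.0294 in CDS, 0.0282 in 3′ UTRs and 0.0571 in introns. In the other annotated genes it was 0.0909 (0.0857 to 0.0952), in unannotated bases 0.0924 (0.0882 to 0.0952) and in structural RNA genes 1. At the maximum of 1 lay 86 of the 5′ UTR sites (11.0%, 8.99 to 13.4%), compared with 1.15% in CDS, 1.34% in 3′ UTRs and 2.53% in introns, with 7.99% in the other annotated genes, 6.41% in unannotated bases and 229 of 358 sites in structural RNA genes. In 350 genes with sites in both the 5′ UTR and the CDS, the median occupancy was higher in the 5′ UTR in 280 (80%), lower in 68 and equal in 2.

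The difference moved with the position and with the divisor of the ratio. The median occupancy was 0.4 in the first 25 nt and again from 25 to 49 nt, 0.158 from 50 to 99 nt, 0.04 from 100 to 199 nt, 0.0352 from 200 to 399 nt and 0.0513 from 400 nt onwards. The median number of transitions was 2 in every stretch, and the median read count was 11 to 13, while the median divisor of sites below the maximum was 10, 9, 21.5, 69.5, 71 and 54. The sites at the maximum lay at a median of 29.5 nt (24 to 42) from the transcript start and the others at 113 nt (104 to 124). Of the 231 sites in the first 50 nt 63 were at the maximum, and of the other 551 sites 23 were (4.17%). In the first 25 nt, where the sites at the maximum were most frequent, the medians of 5′ UTRs and CDS were 0.4 (0.286 to 0.5) and 0.333 (0.133 to 1), and from 25 to 49 nt they were 0.4 (0.286 to 0.5) and 0.310 (0.15 to 0.5), with intervals that overlap. Farther on the median was higher in 5′ UTRs than in CDS at the same distance. It was 0.158 against 0.0580 from 50 to 99 nt and 0.04 against 0.0217 from 100 to 199 nt, with divisors of 21.5 against 44.5 and 69.5 against 105. How much of the occupancy of 5′ UTR sites comes from low RNA-Seq coverage at transcript starts was not tested.

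**Figure D3:**
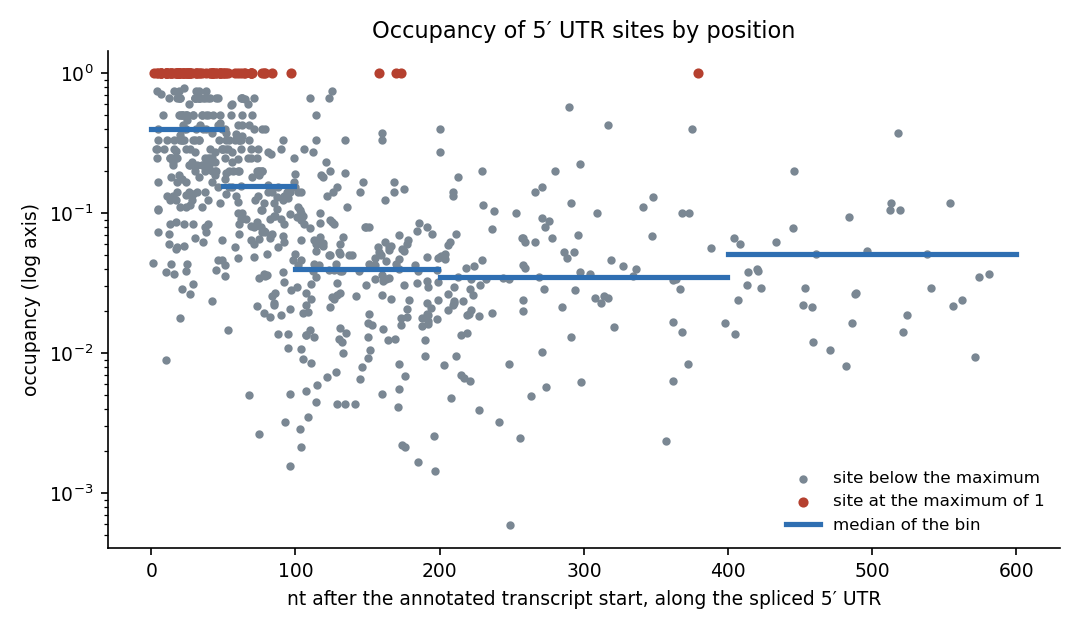
Occupancy (log axis) of each 5′ UTR site against its distance from the annotated transcript start along the spliced UTR, with sites at the maximum of 1 in red and the median of each stretch as a blue bar; the 43 sites beyond 600 nt are not drawn, but count in the last median. The median falls from 0.4 in the first 50 nt to 0.04 from 100 to 199 nt, and 63 of the 86 sites at the maximum lie in the first 50 nt.

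The sequence around 5′ UTR sites resembled that around 3′ UTR sites in its leading tetramers. Ranked by the excess over all uridines of the class, within 25 nt, the first 5 tetramers were the same and in the same order in both UTRs: GUAG (2.67-fold in 5′ UTRs and 2.61-fold in 3′ UTRs), UGUA, GUAA (2.13 and 1.97), AGUA (1.95 and 1.78) and UAGU (1.74 and 1.57). All of these but UAGU hold GUA and overlap each other in sequences such as UGUAG, so their counts are not separate findings. The crosslinked base was the first U of UGUA at 101 sites (12.9%) and the base just before that U at 35. The base after the crosslink was G at 27.6% of sites and at 13.5% of all 5′ UTR uridines, and C at 7.80% against 17.3%. A stood at the position 2 bases before the site in 41.9% against 28.0% and at the position 3 bases after it in 42.3% against 28.9%. The 101 sites on the first U of UGUA hold that G and the A 3 bases after by definition, so these shares overlap with that count.

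Differences between the UTRs began with the sixth tetramer. GCAC lay near 70 of the 5′ UTR sites (8.95%, 7.15 to 11.2%) and 5.30% of uridines, a 1.69-fold excess, while in 3′ UTRs its share of sites was close to that of uridines (1.06-fold, rank 95). CACG had 1.60-fold in 5′ UTRs and 1.07-fold in 3′ UTRs (rank 91). GCAC and CACG overlap in GCACG, so their counts are not separate findings. These tetramers were picked after their values were seen among all tetramers. Without the sites of seb1, GCAC was near 66 sites (8.63%) and CACG near 50 (6.54%).

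Some features of the surrounding annotation were followed because they can place other RNAs in the same bases. Of the 782 sites, 100 also lay in, or up to 250 nt after, another coding gene on the strand, where Seb1 sites of that gene's 3′ end may fall. Their density was 4.15 per 1000 uridines (3.38 to 5.05), against 2.56 (2.37 to 2.76) for the other 5′ UTR bases, and UGUA was near 41.0% and 40.3% of them. In the first 100 nt of the transcript the densities were 4.21 (3.31 to 5.29) and 3.40 (3.03 to 3.79), and from 100 nt onwards 4.00 (2.61 to 5.86, 26 sites) and 2.11 (1.89 to 2.33). In upstream open reading frames, short frames that begin with an AUG inside the 5′ UTR, lay 76 sites, with a density of 2.42 (1.91 to 3.03) against 2.72 (2.53 to 2.93) elsewhere, intervals that overlap. UGUA was near 53.9% (42.8 to 64.7%) of the sites in such frames and 39.0% (35.4 to 42.6%) of the others, where 22.7% and 18.1% of the uridines had it.

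Seb1's own transcript held more 5′ UTR sites than any other gene. The gene (SPAC222.09, chromosome I, 959885 to 962227, plus strand) has a 5′ UTR of 176 nt with 17 sites, 7 to 172 nt from the transcript start, which is 2.17% of all 5′ UTR sites but 10.2% of their transitions (249). Between 98 and 364 reads covered each site and 6 to 46 carried the transition. The leading site, 22 nt from the start, had 46 transitions in 345 reads, and its neighbours at 21 and 23 nt had 24 in 342 and 18 in 348. A second group lay at 95 to 106 nt, where the site at 100 nt had 25 transitions in 354 reads. UGUA lay near the 4 sites at 55 to 80 nt and near none of the other 13, so the sites with the most transitions in this UTR had no UGUA within 25 nt. The printed windows of the sites at 22 and 100 nt do hold AGUA, another of the leading tetramers. Occupancy ran from 0.0431 to 1. It changed abruptly along the UTR, since its divisor was 23 at 65 nt, 138 at 75 nt, 132 at 106 nt and 12 at 123 nt, while the reads at these sites numbered between 181 and 346. The same gene had 11 sites in its CDS and 6 within 250 nt of its 3′ end. The strain carries the tag on this gene, and whether the tagged and the untagged gene differ in transcript level or 3′ end was not tested.

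The gene next in number of sites was SPBC1271.10C, annotated as a transporter, with 8 sites and 60 transitions in a 5′ UTR of 756 nt. All lay between 74 and 285 nt, with 45 to 177 reads each, and 5 had UGUA nearby. The 4 sites from 112 to 128 nt, with 12, 9, 12 and 6 transitions, lay near the paired UGUA seen in its printed window. Likewise sfk1, a gene of inositol lipid signalling, had 8 sites, but with 37 transitions and spread from 51 to 521 nt of its 726 nt UTR. Its leading site, 161 nt from the start on the first U of a UGUA, had 13 transitions in 32 reads, and the other 7 had 2 to 6 in 11 to 68 reads.

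In ptl1, which encodes a triacylglycerol lipase, all 6 sites had UGUA within 25 nt and lay 81 to 201 nt from the start, each with 3 or 4 transitions. The 6 sites of rep1, an activator of the MBF transcription factor for S-phase genes, had 2 or 3 transitions each, and 4 of them lay in or just after another coding gene. This was so for all 5 sites of ssa2, an Hsp70 chaperone gene, with 24 to 39 reads and occupancy from 0.0109 to 0.75. Sites near the 3′ end of an upstream gene therefore made up 9 of the 11 sites in these 2 genes. The genes ssl1 (a TFIIH subunit), pho843 (an inorganic phosphate transporter) and SPAC2H10.01 (a transcription factor) had 5 sites each, with at most 5 transitions at a site. In bdf2, a bromodomain gene with an intron in its 5′ UTR, the 4 sites had 5 to 9 transitions in 107 to 243 reads, and UGUA lay near each of them. The 10 genes named so far in this account of single genes held 69 of the 782 sites.

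**Figure D4:**
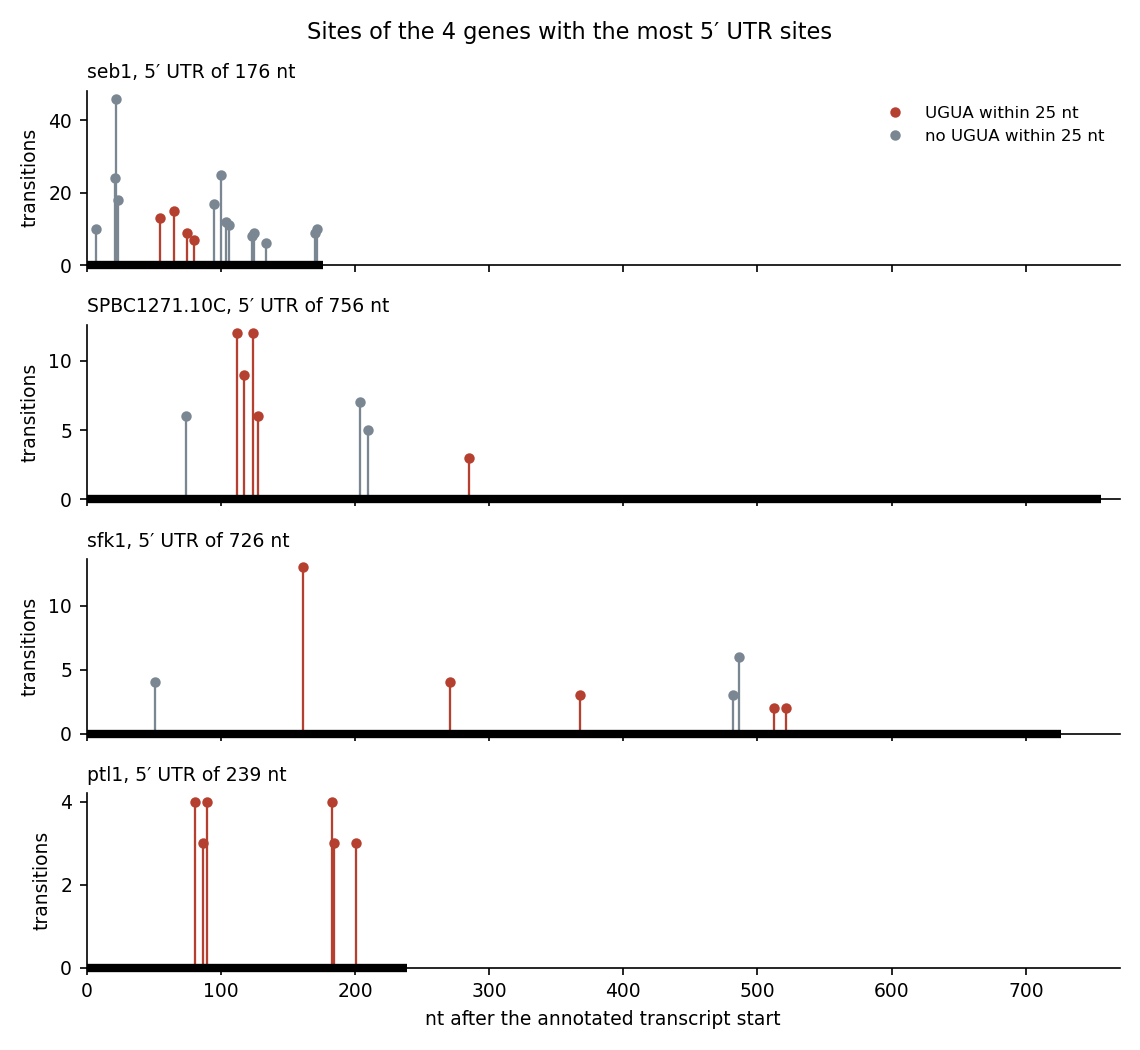
Transitions (reads with T-to-C) at each 5′ UTR site of seb1, SPBC1271.10C, sfk1 and ptl1 against the distance from the annotated transcript start in nt; the black bar is the 5′ UTR, and red marks sites with UGUA within 25 nt. The highest sites of seb1 (46 and 25 transitions) have no UGUA nearby, although their printed windows hold AGUA. All 6 sites of ptl1 have UGUA nearby. The vertical scales differ.

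Other genes were prominent for single sites with many transitions. In tif51, the gene of translation factor eIF5A, the site at 17 nt had 29 transitions in 59 reads and a neighbour at 14 nt had 5 in 59, both at the maximum occupancy. These bases also belong to an annotated long non-coding RNA of the same strand, and the 2 transcripts cannot be told apart. In tbp1, the TATA-binding protein gene, 3 sites lay at 52 to 60 nt of a 68 nt UTR, with 6 to 17 transitions in 152 to 372 reads and no UGUA nearby. SPAPB24D3.03, an agmatinase gene, had 16 transitions in 51 reads at 43 nt, in an upstream open reading frame. In tef101 (elongation factor EF-1 alpha) the adjacent sites at 28 and 29 nt had 10 to 12 transitions in 341 to 368 reads.

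The remaining sites with the most transitions among those at the maximum occupancy lay in 5 genes. In rpl1001, a ribosomal protein gene, 12 of 263 reads carried the transition at 27 nt of a 33 nt UTR, and in rps2202 8 of 152 did at 18 nt. The adjacent sites of rrp16, an rRNA processing gene, had 8 of 37 and 8 of 38. In gpd1, which makes glycerol-3-phosphate dehydrogenase for glycerol synthesis, 3 sites at 19 to 35 nt were at the maximum, with 8 of 167 reads at the last, but another site at 104 nt had an occupancy of 0.00214. The divisor there was 1404, whereas at a site at the maximum the divisor is not known. SPAC27E2.11C, a gene specific to *Schizosaccharomyces*, had 6 of 174 at 10 nt. At the other end of the scale, pma1, the plasma membrane proton pump, had 4 sites 249 to 1368 nt into its 1432 nt UTR, with 15 to 145 reads and occupancies from 0.000589 to 0.00908.

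Of the genes followed in the study for termination, set7, a histone methyltransferase gene, had 4 5′ UTR sites with 11 transitions in all, 4 to 209 nt from the start and 3 with UGUA nearby. In set7 no site was listed in the CDS or within 250 nt of the 3′ end. No 5′ UTR site was listed in adh1 (alcohol dehydrogenase), rps401 (a ribosomal protein), pho1 (acid phosphatase), aro2 (chorismate synthase) or SPCC297.06C. Their 5′ UTRs measure 67, 13, 51, 151 and 214 nt in that order, and few of the short 5′ UTRs of all genes held a site. All of these genes but SPCC297.06C did have sites within 250 nt of their 3′ end, between 2 and 8 per gene.

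Genes with a 5′ UTR site also had sites elsewhere more often than genes without. A CDS site was listed in 350 of the 550 genes (63.6%, 59.5 to 67.5%) and in 48.0% (46.5 to 49.6%) of the 3962 genes with an annotated 5′ UTR but no site in it. A site within 250 nt of the 3′ end was listed in 281 (51.1%, 46.9 to 55.2%) and in 40.0% (38.5 to 41.5%), and a 3′ UTR site in 40.9% and 27.5%. In 93 of the genes (16.9%) the 5′ UTR was the only one of these places with a site. The genes were not matched on transcript abundance, and its part in these shares was not tested.

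Gene groups were compared with the 12.2% of all genes and the density of 2.69. They were not matched on transcript abundance, and its part in these values was not tested. Among genes of transcription and 3′ end formation, 1 of 18 cleavage and polyadenylation factors had a site (mpe1; 5.56%, 0.988 to 25.8%), 2 of 19 termination and CTD factors (seb1 and cdk9; 10.5%, 2.94 to 31.4%) and 1 of 11 Pol II subunits (rpb4; 9.09%, 1.62 to 37.7%), intervals that all hold the background. The density of the termination list, 14.5 per 1000 uridines, rested on the 17 sites of seb1 among its 18. Nuclear RNA surveillance genes had sites in 3 of 20 (air1 of the TRAMP complex, mmi1 and the exosome subunit rrp43), with 2 transitions at each.

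Ribosomal protein genes had sites in 8 of 136 (5.88%, 3.01 to 11.2%), a share below that of all genes, but their 5′ UTRs are short, with a median of 20 nt. Per uridine they were dense, with 11 sites and 17.0 per 1000 (8.50 to 30.5), while all 5′ UTRs under 50 nt had 4.69 (3.41 to 6.29). Of the 11 sites, rpl3402 had 3, in a 5′ UTR of 239 nt. In rpl1702 lay 2, both at the maximum occupancy, and in rpl4301 1 with 12 transitions. Translation factors had sites in 6 of 54 and a density of 7.42 (3.20 to 14.6), tif51 and tef101 included. In glycolysis and alcohol fermentation 3 of 17 genes had a site, led by tdh1 (glyceraldehyde-3-phosphate dehydrogenase) with 13 transitions at 25 nt.

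The share was above that of all genes in heat shock and chaperone genes, 7 of 18 (38.9%, 20.3 to 61.4%), with 12 sites and a density of 9.17 (4.74 to 16.0), and their median UTR of 193.5 nt was longer than the 97 nt of all genes. Of these sites 5 were those of ssa2, all in or just after another coding gene, and hsp90 had 2, with occupancies of 0.00219 and 0.00265. In cell wall genes, 10 of 28 (35.7%, 20.7 to 54.2%), and in transcription factors of stress and nutrient response, 8 of 22 (36.4%, 19.7 to 57.0%), the share was as high, and the UTRs were longer still, with medians of 311 and 635.5 nt. Their densities were 2.86 (1.60 to 4.72) and 1.09 (0.470 to 2.14), so per uridine cell wall genes were close to all genes and the stress transcription factors below. All 5′ UTRs of 400 nt or more had 2.14 (1.89 to 2.42), a value at the upper end of the interval of the stress list. Examples were bgs4, a glucan synthase gene with 4 sites, and atf1, the factor downstream of the stress-activated MAP kinase, with 1 site of 2 transitions.

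The other groups lay near the background when the density was taken. Cell cycle regulators had sites in 6 of 27 (22.2%), rep1 and the cyclin gene cdc13 included, with a density of 2.77. Of the 12 sites of this list 6 were those of rep1, most of them in or just after another coding gene. Transcription factors by annotated product had sites in 25 of 109 (22.9%, 16.0 to 31.7%; density 2.76), transporters in 29 of 179 (16.2%; 2.25), genes with kinase in the product name in 32 of 195 (16.4%; 2.22) and RNA-binding proteins in 6 of 50 (12.0%; 1.77). Of 9 meiotic genes 1 had sites, mei4, a forkhead transcription factor gene whose meiotic mRNA is removed in growing cells, with 3 sites and 13 transitions, all in or just after another coding gene. Mitochondrial proteins had sites in 5 of 95 (5.26%, 2.27 to 11.7%), with a density of 1.81 (0.781 to 3.56).

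**Figure D5:**
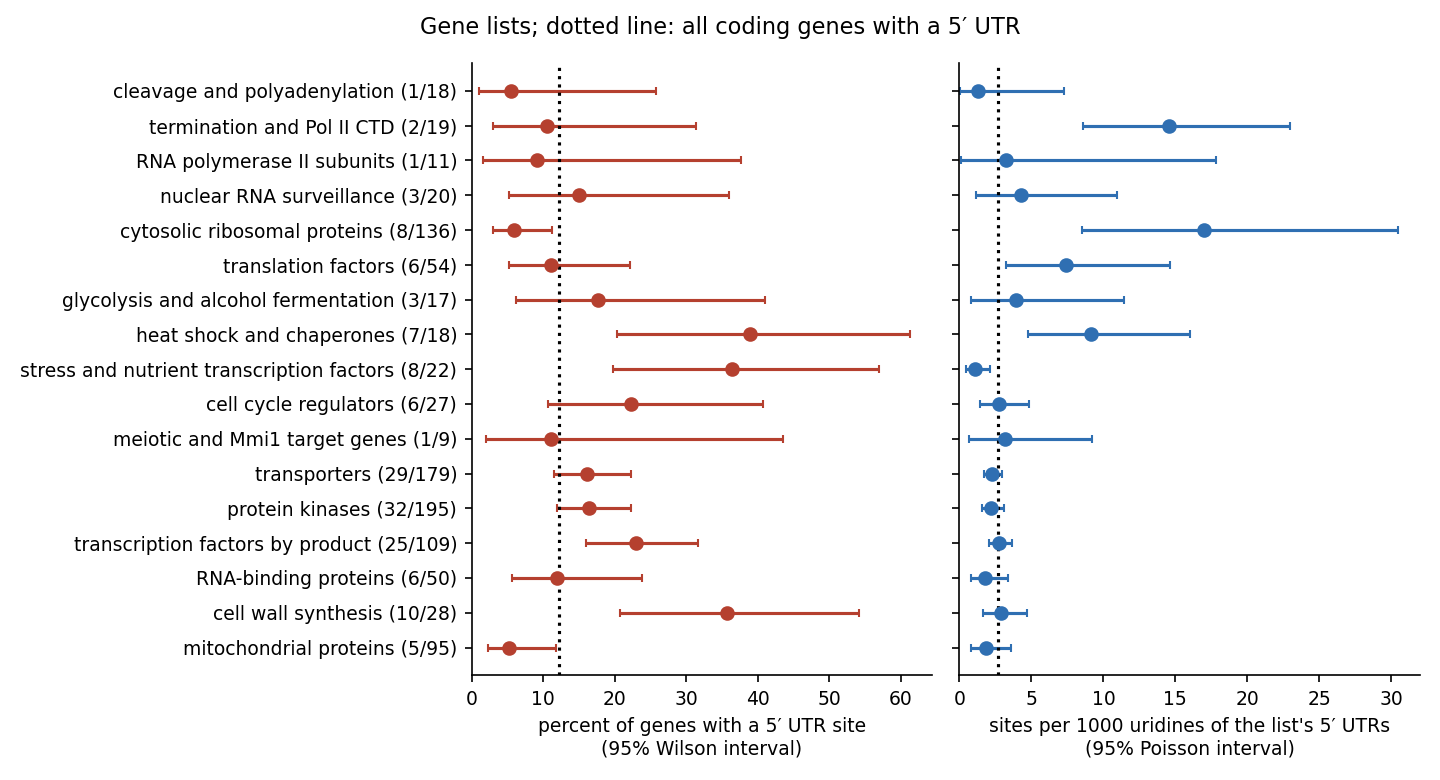
For 17 gene lists (number with a site over number with a 5′ UTR), the percentage of genes with a 5′ UTR site with 95% Wilson intervals (left) and the sites per 1000 uridines of their 5′ UTRs with 95% Poisson intervals (right); dotted lines mark 12.2% and 2.69 for all coding genes with a 5′ UTR. Heat shock genes lie above both lines, ribosomal protein genes below the first and above the second.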

How the data were processed

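The list of crosslink sites of 1 Seb1 PAR-CLIP library was used. Per the labels, bound RNA was partially digested with RNase T1 before cDNA was made. The processing notes name Bowtie 1.1.1 and SAMtools among the tools and build ASM294v2. The site calling and its thresholds are not given in the sources used here. The authors deposited 2 raw counts per site, the reads with the T-to-C transition and the reads covering the site. The deposited p-value, at most 0.00493 at the sites reported, served for description alone. The authors also deposited the occupancy, a ratio of transitions to the signal of 1 RNA-Seq library, for which labels and methods give different UV doses.

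Sites were placed on ASM294v3 and its RefSeq annotation. All 15789 nuclear sites fell on a T of their strand, and the 35 other sites were left out. Each base was assigned once, in the order structural RNA gene, CDS, 5′ UTR, 3′ UTR, intron, other gene, unannotated. Of 5113 coding genes, 601 without a 5′ UTR were left out, and 10 have more than 1 transcript model. UGUA was searched on the crosslinked strand. Intervals at 95% are Wilson for shares, exact Poisson for densities, exact binomial for ratios and order statistics for medians. Python 3.11.15 was used, with scipy 1.17.1, numpy 2.4.6, matplotlib 3.10.9 and pandas 2.3.3. The counting functions were run on uridines drawn with a planted density ratio and motif share, and on random numbers with a known median. The planted values were recovered, which checks the counting code and not the site calls.

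Named are the 10 genes with the most sites, with ties broken by summed transitions, which picked bdf2 from the genes with 4. Named too are the genes of the 10 sites with the most transitions and of the 10 with the most at the maximum occupancy. Up to 4 genes per list and the genes that the study names for binding or termination were added. The tetramers and pma1 were picked after their values were seen. The members and lists were chosen with earlier results of these data known, and the lists rest on symbols or on words of the annotated product. The gene symbols hrp1, nrd1 and fip1, which name other proteins in *S. pombe*, were left out of the lists. Alternatives changed the minimum of reads and transitions, the maximum occupancy, overlapping genes, clusters, the unit of density and the motif window. The other experiments of the series were not analysed here.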

Additional observations from a re-analysis of the deposited data

Results flagged for a closer look

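Opposite 5′ UTR bases the list held 155 sites, of which 72 lay in no annotated gene. These 72 are part of the unannotated sites whose occupancy is given above. They had 0.576 sites per 1000 uridines (Poisson interval 0.451 to 0.725), below the 1.63 (1.58 to 1.67) of all unannotated bases. UGUA lay within 25 nt of 45.8% of them (34.8 to 57.3%) and of 25.2% of the uridines there. Of their 1400 transitions, 1234 belonged to 1 site on chromosome III (position 1473672, plus strand), opposite SPCC11E10.09C, where 1234 of 1265 reads carried the transition. No 5′ UTR site had a share above 75%. The next highest, opposite rgf1, had 7 transitions in 12 reads.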

How the results depend on the processing

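With sites of at least the median coverage of 13 reads, 367 sites remained, 5.25% of genes had one, and the density ratios were 1.44 to CDS and 0.689 to 3′ UTRs. With at least 3 transitions the values were 288 sites, 4.23% of genes, 1.63 and 0.651, and 50.3% of sites had UGUA. Without the sites at the maximum occupancy the ratios were 1.16 and 0.684, the median distance from the transcript start was 113 nt and the median occupancy 0.0741. Per base in place of per uridine the ratio to CDS was 1.61. With UGUA sought within 10 nt, its share was 29.5% of sites and 7.80% of uridines. Under these settings no value changed direction. The other alternatives moved no value beyond its counting interval or, for the number of sites, by over 1.5 times. At matched distance from the transcript start, given above and not among these settings, the ratio to CDS did fall below 1. This held in every stretch but 25 to 49 nt, where the ratio was 1.37, and from 100 to 199 nt the interval reached 1.15. Leaving out seb1, chosen after seeing the data, gave a ratio to CDS of 1.27, UGUA at 40.8%, a distance of 99 nt and an occupancy of 0.0952. No paired analysis was possible because 1 library was used and the results come from no test, and no replicate could be left out. The depth limits single sites most: 63.2% rest on 2 transitions, and a site not listed may be one with too few reads.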
